A study of Mus musculus with 8 samples.

Results

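The 4 control arrays of a study of menin in mouse B-cell progenitors were described on their own, as a reference profile of normal pro-B cells. They are 4 of the 8 arrays of the series, and they were chosen by their titles, with no measured value involved. Each array holds RNA from bone marrow pro-B cells of Fraction B, which carry B220, CD43 and HSA on their surface and lack BP-1, the antigens used in the sort. The control mice carried floxed Men1 (MenF/F) without Cre, so they are not unmodified wild-type animals, although the titles call them wt. The other 4 arrays came from Rag1-cre;MenF/F mice, in which Cre made in Rag1-expressing lymphoid progenitors deletes Men1, and they enter here only as a second measure of spread. Floxed Men1 is shared by both groups. The samples are labelled as 2 to 3 weeks old, and the series' design gives 3 weeks. The 4 control mice are replicates 1 to 4 below, and their number limits the precision of every spread given. No strain is named in the sources used here.

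Pro-B cells are the stage at which the immunoglobulin heavy-chain locus is cut and rejoined. The recombinase Rag1 and Rag2 makes the cuts, terminal transferase (Dntt) adds bases at the junctions, and the end-joining proteins seal them. A productive heavy chain then pairs with the surrogate light chain, made by Vpreb1 and Igll1, to form the pre-B-cell receptor with Cd79a and Cd79b. The transcription factors Tcf3, Ebf1 and Pax5 set up this programme, and interleukin 7 drives survival and division of the cells.

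Each gene was represented by the probe set with the highest mean among those that match exactly 1 symbol, which gave 18193 genes. Values are log2 signals, so a difference of 1 is a 2-fold difference. A probe set's signal depends on how well its probes hybridise, so levels of different genes are given as signals and not as relative amounts of RNA. A gene was said to have a clear signal where it lay above the 60th percentile of all probe sets of the same array on all 4 arrays, which held for 8878 genes (48.8% of all). It was near the floor where it lay at or under the 40th percentile on all 4, which held for 5650 genes (31.1%). The remaining 3665 genes lay in between. Genes above the 90th percentile on all 4 arrays, 2723 in number (15.0%), are called bright.

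The promoters of 3 genes that define the stage and of 2 genes of general cell functions are printed here. They show the widely different counts of CG dinucleotides in promoters whose genes all gave a bright signal. Each sequence runs from 250 bases before to 50 bases after the transcription start, 5′ to 3′ on the gene's strand, from RefSeq on build GRCm38.p6. Capitals mark each CG dinucleotide, which reads the same on both strands. Igll1 and Vpreb1 encode the surrogate light chain and Dntt terminal transferase, while Pcna is the sliding clamp of DNA polymerase and Rplp0 a protein of the ribosomal stalk. Their windows are chr16:16863936-16864235 (minus strand), chr16:16869206-16869505 (minus), chr19:41029025-41029324 (plus), chr2:132253131-132253430 (minus) and chr5:115559217-115559516 (plus), in that order.
Igll1: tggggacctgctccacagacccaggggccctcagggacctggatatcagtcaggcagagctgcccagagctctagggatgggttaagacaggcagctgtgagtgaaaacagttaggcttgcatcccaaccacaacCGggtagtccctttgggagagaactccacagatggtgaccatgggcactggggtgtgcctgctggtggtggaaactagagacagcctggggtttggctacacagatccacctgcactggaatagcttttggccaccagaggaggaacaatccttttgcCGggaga
Vpreb1: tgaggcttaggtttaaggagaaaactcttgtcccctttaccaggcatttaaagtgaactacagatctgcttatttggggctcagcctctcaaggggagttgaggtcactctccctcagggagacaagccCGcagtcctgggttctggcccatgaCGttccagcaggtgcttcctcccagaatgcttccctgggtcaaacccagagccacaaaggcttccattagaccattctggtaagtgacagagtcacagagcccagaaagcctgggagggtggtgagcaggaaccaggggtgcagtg
Dntt: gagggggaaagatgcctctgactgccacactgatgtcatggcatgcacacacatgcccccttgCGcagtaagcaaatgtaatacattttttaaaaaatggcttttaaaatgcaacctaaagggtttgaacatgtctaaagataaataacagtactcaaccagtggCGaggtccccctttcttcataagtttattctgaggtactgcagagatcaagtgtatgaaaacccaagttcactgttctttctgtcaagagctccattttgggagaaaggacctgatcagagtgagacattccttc
Pcna: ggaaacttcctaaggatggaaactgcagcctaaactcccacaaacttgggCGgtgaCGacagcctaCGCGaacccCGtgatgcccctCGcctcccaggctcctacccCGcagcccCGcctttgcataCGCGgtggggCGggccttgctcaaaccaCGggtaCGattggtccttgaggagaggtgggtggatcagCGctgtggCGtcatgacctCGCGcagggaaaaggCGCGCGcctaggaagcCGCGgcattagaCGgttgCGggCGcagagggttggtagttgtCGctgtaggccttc
Rplp0: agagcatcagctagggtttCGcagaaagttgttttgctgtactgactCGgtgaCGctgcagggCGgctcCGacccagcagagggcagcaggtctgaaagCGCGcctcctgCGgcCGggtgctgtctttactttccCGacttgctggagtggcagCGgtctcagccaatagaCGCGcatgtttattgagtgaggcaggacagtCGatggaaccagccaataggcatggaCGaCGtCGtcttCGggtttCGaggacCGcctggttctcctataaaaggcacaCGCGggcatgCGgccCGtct

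The windows of Igll1, Vpreb1 and Dntt hold 2 CG each, that of Pcna holds 26 and that of Rplp0 holds 24. All 5 genes had a bright signal on the arrays. Over the 27025 promoters of the table the median count of CG was 7, and 31.9% held 3 or fewer. These promoters outnumber the 18193 genes of the arrays, so that share is not one over the measured genes. Of the 8878 genes with a clear signal, 7323 matched a promoter, with a median of 22 CG, and 4.16% of these held 3 or fewer. The 7 marker genes of the stage had a median of 3. Rag1 held 3, Cd79a 8, Ebf1 9 and Pax5 23, so the markers were not alike in this respect. Among the lists described below, the mitosis genes had a median of 24 CG (25 of 30 matched) and the DNA replication genes a median of 22 (25 of 30). B-lineage transcription factors had a median of 18.5 (24 of 29), with 40 in the window of Myb, and genes of interleukin 7 signalling had a median of 29 (15 of 18). Genes of B-cell receptor signalling had a median of 8 (15 of 17), so lists of the B-cell programme differed in CG. Genes of neutrophils and their precursors had a median of 4 (13 of 13), with 3 for Camp and 2 for Mpo. Only the first promoter listed for a gene was used. For the genes near the floor (4274 of 5650 matched) and those of V(D)J recombination (13 of 18) no summary is given, because fewer than 80% matched. The same holds for the lists of the pre-B-cell receptor (4 of 6) and of surface genes of progenitors (7 of 12).

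The arrays were alike in their overall distribution. The lowest value, 2.08, was shared by 36.4% to 36.7% of the 45037 probe sets of an array, the 60th percentiles ran from 6.52 to 6.73, and the 90th from 12.14 to 12.19. Over the 9090 genes whose mean exceeded 6.66 (the mean of the 60th percentiles), Pearson's r across genes ran from 0.980 between replicates 2 and 3 to 0.993 between replicates 1 and 4. Genes are not independent, so these values describe likeness only. The number of genes at least 2-fold apart was 47 between replicates 1 and 4 and 231 between replicates 2 and 3. Replicate 3 came from a male by its sex-linked genes and the other 3 from females.

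**Figure D1:**
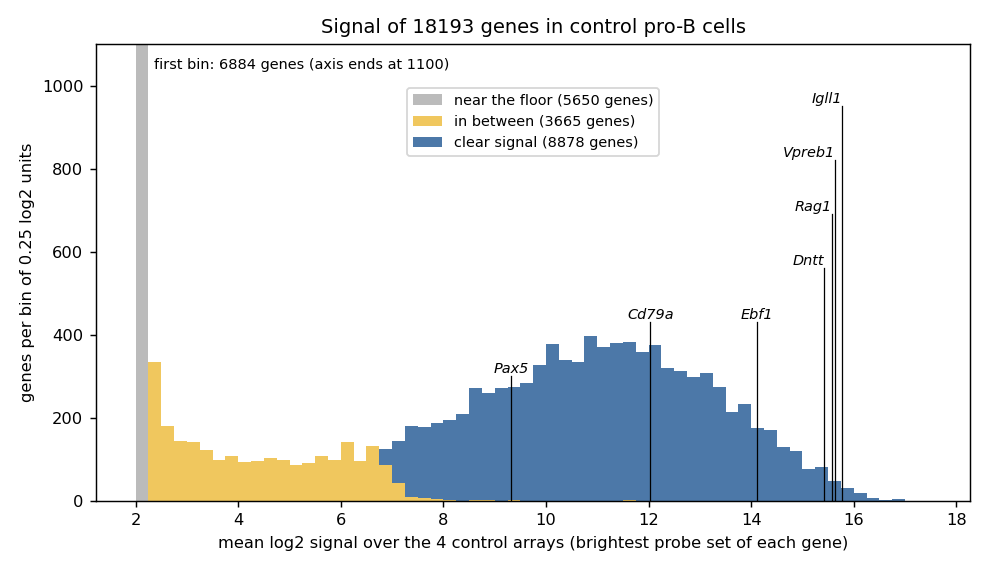
Distribution of the mean log2 signal of 18193 genes over the 4 control arrays, in bins of 0.25, with genes near the floor in grey, in between in yellow and with a clear signal in blue. The first bin runs past the end of the axis at 1100 and holds 6884 genes, of which 5650 were near the floor and 1234 in between. Vertical lines mark the 7 marker genes, all within the blue part of the distribution.

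All 7 marker genes of the pro-B stage had a clear signal. Rag1, the catalytic subunit of the recombinase, read 15.55, 15.47, 15.57 and 15.69 in replicates 1 to 4, a mean of 15.57 ± 0.092 (SD, n = 4). Dntt read 15.36, 15.38, 15.45 and 15.46, and its second probe set ran from 14.51 to 14.81. The 4 values of both genes were nearly level. Igll1 read 15.89, 15.88, 15.44 and 15.87, and Vpreb1 read 15.51, 15.66, 15.84 and 15.54. The lowest Igll1 value and the highest Vpreb1 value were both in replicate 3. Vpreb1 has a near-identical copy, Vpreb2, whose own level is not analysed here, so its signal may hold both. Ebf1, a pioneer factor of the B lineage, read 14.13, 14.06, 14.03 and 14.26, and 3 of its 4 other probe sets averaged 12.42 to 13.62. Cd79a, a signalling chain of the receptor, read 12.11, 11.97, 11.91 and 12.14. Pax5, which commits cells to the B lineage, read 9.27, 9.34, 9.48 and 9.17. Its second probe set averaged 5.95, and the second probe set of Igll1 averaged 2.42 against 15.77 for the first, which shows how far probe sets of 1 gene can lie apart.

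The transcription factors of the B lineage were present nearly as a whole, with 28 of 29 measured genes at a clear signal and 22 of them bright, against 48.8% and 15.0% of all genes. Their median level was 13.43, against 6.65 for all genes and 11.16 for genes with a clear signal. The brightest signals in the list were those of Myb (15.42), a factor needed for progenitor growth, Ets1 (15.29), Sox4 (15.22), which supports the survival of pro-B cells, and Pou2af1 (15.05), a coactivator of Oct proteins on immunoglobulin promoters. Lef1, a factor of Wnt signalling that is expressed in early B cells, read 13.14, 13.22, 13.31 and 13.33. At the dim end were Id2 (8.78), an inhibitor of E proteins, and Spi1 (8.54), which encodes PU.1 and is known to be kept low in B cells. Spi1 read 8.58, 8.52, 8.56 and 8.50, the narrowest range in the list. Zfp521, a zinc-finger protein that can oppose Ebf1, read 5.88, 5.40, 6.36 and 6.36 and was the only member without a clear signal. No member of the list ranged 2-fold across the 4 arrays, and the median range was 0.27.

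Components of the pre-B-cell receptor gave some of the strongest signals on the arrays, with 6 of 6 measured genes at a clear signal and a median of 15.52. Cd79b, the partner chain of Cd79a, read 16.09, 16.06, 16.14 and 16.02 and was the brightest of the list. Ighm, the mu constant region that is transcribed before and after rearrangement, read 15.53, 15.59, 15.17 and 15.31. Vpreb3, a chaperone-like relative of Vpreb1, averaged 12.82. The widest range in this list was 0.45 (Igll1), so no gene of the receptor differed between mice by more than 1.37-fold.

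Of 17 measured genes that carry the signal onward from the receptor, 16 had a clear signal, with a median of 13.15. The brightest were Cd72 (14.32), an inhibitory coreceptor, Inpp5d (14.18), the lipid phosphatase SHIP, the kinase Syk (13.94) and the adaptor Blnk (13.88). The dimmest were Fyn (11.55), a Src-family kinase, Bank1 (9.30), a scaffold of B-cell signalling, and Lat2 (5.43), an adaptor that lay in between. Of the 16 members above the minimum level 3 ranged at least 2-fold across mice, against 4.54% of all genes above it, while the list's median range was 0.33. Bank1 read 9.78, 8.38, 9.55 and 9.49, lowest in replicate 2. The other members named here for their ranges, after their values were seen, were Pik3ap1, an adaptor of PI 3-kinase (12.10, 11.75, 12.09 and 14.29), and Pik3cd, a catalytic subunit of PI 3-kinase (13.18, 14.33, 12.89 and 12.74). Pik3ap1 was high in replicate 4 and Pik3cd in replicate 2. The second probe set of Pik3cd gave 11.51, 11.37, 11.83 and 11.87, lowest in replicate 2, so its probe sets did not share the pattern. The count of members ranging 2-fold was 1 without replicate 2 and 2 without replicate 4.

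The machinery of V(D)J recombination was measured for 18 genes, all with a clear signal, 8 of them bright, with a median of 11.75. Besides Rag1 and Dntt, the brightest signals were those of Hmgb2 (14.97), a DNA-bending cofactor of the recombinase, and Xrcc6 (14.62), which encodes Ku70. Rag2, the partner of Rag1, read 12.76, 12.26, 12.82 and 13.23, lowest in replicate 2 and highest in replicate 4, and its range of 0.97 was the widest of the list. The dimmest signals were those of Polm (9.50) and Poll (9.01), polymerases that fill in the ends, and Nhej1 (8.70), a cofactor of the ligase. None of the 18 ranged 2-fold, against 4.54% of the 9090 genes above the minimum level.

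Interleukin 7 signalling was represented by 18 measured genes, of which 16 had a clear signal, with a median of 10.68. Il7r, the receptor's own chain, read 14.64, 14.48, 14.82 and 14.72. The survival factor Mcl1 (15.40), the cyclin Ccnd3 (14.19) and the kinase Pim1 (13.77) were the other brightest members. Other members gave dimmer signals. Socs3, a feedback inhibitor of cytokine receptors, read 7.44, 8.66, 7.95 and 7.06, highest in replicate 2, and Mycn averaged 6.91. Socs1, another feedback inhibitor, was at 2.08 on all 4 arrays. The list's median range was 0.60, wider than the 0.37 of all genes above the minimum level, and 2 members ranged 2-fold (0 without replicate 2 and 1 without replicate 4).

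The genes behind the sort were measured directly. Ptprc, which encodes CD45 with its B220 form, read 14.71, 14.51, 14.91 and 14.68. Spn, which encodes CD43, read 12.53, 12.57, 12.84 and 12.58, and Cd24a, which encodes HSA, read 16.00, 16.01, 16.27 and 16.02. These 3 were used to select the cells, so their signal is no finding. Enpep, which encodes BP-1, the antigen whose absence defined the sort, also had a clear signal, with 11.52, 10.63, 11.68 and 11.75. Replicate 2 was lowest and the other 3 lay close together. Besides these 4, the 8 other measured surface genes of B-cell progenitors had a clear signal. Cd93, an antigen of immature B cells (14.03), and Ly6d, an early mark of B-lineage specification (13.01), were the brightest of the 8. The cytokine receptors Kit and Flt3, which mark earlier progenitors, averaged 11.16 and 8.98, and Il2ra, the CD25 antigen that appears at the later small pre-B stage, averaged 9.48.

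Genes of the cell cycle gave a clear signal throughout, most of them bright. All 30 measured DNA replication genes had a clear signal and 23 were bright, with a median of 13.43, and none ranged 2-fold. Pcna read 15.90, 15.98, 16.13 and 15.97, and the helicase subunit Mcm5 read 15.89, 15.92, 15.98 and 15.86. Mcm7 (15.44), another helicase subunit, and Dut (15.34), which keeps uracil out of DNA, came next. Orc1, the largest subunit of the origin recognition complex, was the dimmest with 8.09, after the thymidylate synthase Tyms (9.09) and the polymerase subunit Pole (10.18).

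All 30 mitosis genes likewise had a clear signal, 25 of them bright, with a median of 13.25. Cdca8 (15.32), a subunit of the chromosomal passenger complex, Cenpa (15.16), the histone of centromeres, Top2a (14.87), the topoisomerase that untangles chromosomes, and the proliferation antigen Mki67 (14.81) were the brightest. Mki67 read 14.78, 14.60, 15.02 and 14.84. Foxm1, the factor that drives mitotic genes, was the dimmest with 8.36. One member, the spindle checkpoint kinase Ttk, named after its values were seen, ranged 2-fold (12.13, 11.56, 12.62 and 12.66), lowest in replicate 2. Averaged over each list, replication genes lay 0.090 below their own means in replicate 1 and 0.061 above in replicate 3, and mitosis genes lay 0.10 below in replicate 2 and 0.082 above in replicate 4, so the 4 mice were within 1.2-fold of one another for both lists.

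The inhibitors of cyclin-dependent kinases were split. Cdkn2c, which encodes p18, averaged 13.38, Cdkn1b, which encodes p27, 12.68, Cdkn1a, which encodes p21, 11.78, Cdkn2d, which encodes p19, 11.53, and Cdkn1c, which encodes p57, 7.92. Cdkn2a and Cdkn2b, the neighbouring genes of the Ink4 locus, both sat at 2.08 on all 4 arrays. Thus 5 of 7 inhibitors had a clear signal.

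Among genes of survival, the BCL2 family had 11 of 14 members with a clear signal. Mcl1 (15.40), Bcl2l11 (13.01), which encodes the death activator BIM, Bmf (12.24) and Bad (11.20) were its brightest members, and Bbc3, Bik and Hrk, all activators of cell death, averaged 5.41, 3.94 and 2.08. Homing receptors were represented by Itga4 (13.40), the integrin subunit that binds VCAM1 in the marrow, Cxcr4 (13.06), the receptor for CXCL12, Cd44 (12.84) and Itga6 (11.98), and 10 of 11 had a clear signal. S1pr1, the exit receptor for sphingosine phosphate, averaged 9.56, Cxcr5, the follicle-homing receptor, 7.98 and Ccr9, a receptor of gut homing, 6.35. S1pr1 read 10.03, 8.58, 9.61 and 10.03 and was lowest in replicate 2.

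General programmes differed in how far their members stood out. All 11 glycolysis genes had a clear signal, led by Ldha (15.18), Pgk1 (14.58), Tpi1 (14.32) and Pgam1 (13.74), and none ranged 2-fold. Chaperones that work in unstressed cells were bright, with Cct2 (16.28), Hspa8 (16.06), Hspa5 (15.53) and Cct3 (15.28) at the top of the list, while the heat-inducible Hspa1b, Hspa1a and Hspb1 averaged 7.91, 3.42 and 2.08. Immediate early genes, which respond within minutes to stimulation and to cell handling, had 16 of 19 members with a clear signal. Btg2 (13.88), Ier2 (11.75), Zfp36 (11.63) and Klf6 (11.41) were the brightest, and Fosb was at 2.08 on all arrays. Interferon-stimulated genes had 16 of 23 members with a clear signal, led by Bst2 (11.94), Ifit2 (11.82), Gbp3 (11.63) and Irf9 (11.11). None was bright, and Oasl2, Mx2 and Ifit1 averaged 3.10, 2.24 and 2.11. Bst2, a membrane protein that tethers viruses, read 11.61, 12.58, 11.43 and 12.15, highest in replicate 2 and lowest in replicate 3. Over the 15 lists of cell programmes, 233 of 255 genes had a clear signal.

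**Figure D2:**
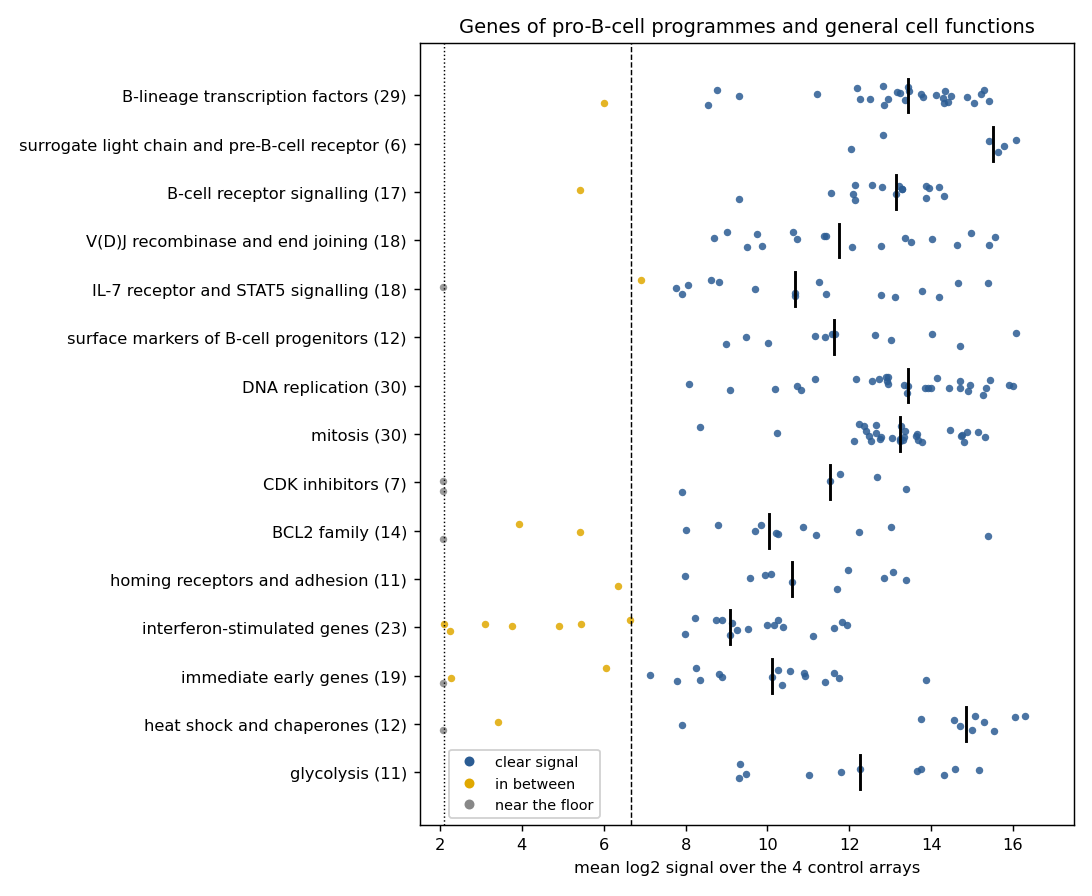
Mean log2 signal over the 4 control arrays for each measured member (point) of 15 lists, with the number of members in brackets and a black bar at the list's median. Dashed and dotted vertical lines stand at the mean 60th and 40th percentiles of the arrays, and points are blue for a clear signal, yellow for in between and grey for near the floor. Every replication, mitosis, recombination, surface and glycolysis gene lies to the right of the dashed line, while the CDK inhibitors are split.

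The 100 genes with the highest mean signals spanned 15.53 to 16.93 and hardly moved between mice. Their median range was 0.16, the widest was 0.57, 84 of them ranged less than 1.2-fold and none ranged 2-fold. At the top were Hmgn1 (16.93), a nucleosome-binding protein, the ribosomal proteins Rpl13a (16.90), Rps18 (16.83) and Rps29 (16.76), and Eif5a (16.65), a translation factor. Rplp0, whose promoter is shown above, read 16.53, 16.55, 16.60 and 16.55. Snrpg (16.48), a core protein of the spliceosome, Cks1b (16.48), a subunit of cyclin-dependent kinases, and Laptm5 (16.41), a lysosomal protein of blood cells, followed.

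Counted by the lists, the 100 held 21 ribosomal proteins, 7 respiratory chain subunits, 4 translation factors, 3 genes of the pre-B-cell receptor (Cd79b, Igll1 and Vpreb1), 2 of DNA replication (Pcna and Mcm5), Rag1 and Cd24a. A further 11 carried names of small nuclear ribonucleoproteins, heterogeneous nuclear ribonucleoproteins or splicing factors. Which genes make up the 100 depends on the probe set taken. With the mean of all probe sets of a gene, 45 of the 100 were among the top 100, and without probe sets whose names end in _x_at or _s_at, which can match several transcripts, 69 were.

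The families behind these signals were covered widely. Of 50 ribosomal protein genes 46 had a clear signal and 41 were bright, with a median of 15.33. For respiratory chain subunits the count was 75 of 81 (median 13.98), for proteasome subunits 37 of 39 (median 13.63) and for translation factors 54 of 58 (median 13.32). The exceptions, named after their values were seen, included subunits known from other tissues, such as the testis forms Cox8c and Cox7b2 (both 2.08) and the thymus-specific Psmb11 (2.08). They also included genes that every cell uses. Rps16 was at 2.08 on all 4 arrays, Rps27 averaged 3.71 and Eif4a3 2.08. A probe set at the floor is therefore not enough to show that its gene is silent. Likewise, of 5748 genes with a clear signal and several probe sets, 1358 (23.6%) had another probe set near the floor.

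Genes of later B-cell stages were often at a clear signal on these arrays. On a list for mature and germinal centre B cells the count was 11 of 13 (84.6%), against 48.8% of all genes. In bulk samples, signals of pro-B cells and of a few later B-lineage cells cannot be told apart. Ms4a1, which encodes CD20, averaged 14.31, H2-Ab1 13.56, the BAFF receptor Tnfrsf13c 13.53 and H2-Aa 12.77. The 3 dimmest were Cxcr5 (7.98), Fcer2a (7.07), which encodes CD23, and Cr2 (6.18), which encodes the complement receptor CD21 of mature B cells. Cr2 read 6.59, 4.93, 7.16 and 6.05 and Fcer2a read 7.18, 6.14, 7.89 and 7.09, both lowest in replicate 2 and highest in replicate 3. The plasma cell list had 6 of 9 genes (66.7%) at a clear signal. Mzb1 (14.62), an endoplasmic reticulum protein of B cells, Irf4 (14.35), Xbp1 (12.80) and Slamf7 (12.15) led it. Prdm1, the master factor of plasma cells, averaged 3.28, Derl3 5.46 and the BCMA receptor Tnfrsf17 2.08.

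T-cell genes gave little signal. One of 19 measured genes had a clear signal, against 48.8% of all genes, and the median was 3.10 against 6.65. A further 12 lay in between and 6 (31.6%) were near the floor, a share close to the 31.1% of all genes. The single one was Lat, an adaptor of the T-cell receptor, with 8.47, 9.18, 8.77 and 9.31. The receptor chains Cd3d and Cd3e, the coreceptor Cd8b1, the T-cell factor Gata3, the pre-T-cell receptor chain Ptcra and Themis were all at the floor, and all but Lat, Thy1 (7.24), Cd5 (6.76) and Zap70 (6.09) averaged under 6. Megakaryocyte genes had 1 of 7 at a clear signal (Itgb3, 8.67), dendritic cell genes 1 of 12 (Klk1, 8.25) and genes of stroma and endothelium 2 of 14 (Pecam1, 8.49, and Kdr, 7.40). Of 18 genes of other organs, such as the liver gene Alb, the pancreatic Ins2 and the glial Gfap, 11 were near the floor and 1 had a clear signal (the sperm protein Prm1, 8.31). The boundary of the floor matters for these counts. With the 50th percentile as the limit, 17 of the 18 organ genes, 9 of the 19 T-cell genes, 6 of the 12 dendritic cell genes and 7 of the 14 stromal genes counted as near the floor. Over all lists of other cells the count then rose from 25 (15.3%) to 53 (32.5%) of 163. Over all genes the shares were 31.1% and 41.7%, so genes on these lists were near the floor less often than genes at large under both limits. The 40th percentiles lay at 2.09 to 2.10, close to the lowest value of 2.08, and the 50th at 3.29 to 3.45. Genes such as Csf3r (2.12) and Mecom (2.13) therefore counted as in between under the first limit, so these shares do not count silent genes.

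Marrow lineages other than B cells differed in how many of their genes had a clear signal. Against 48.8% of all genes the share was 76.9% for neutrophils, 75% for mast cells, basophils and eosinophils, 54.5% for erythroid cells, 50% for monocytes and 33.3% for NK cells, so the erythroid and monocyte shares lay near that of all genes. These are bulk samples, in which a few cells of a type and little RNA in each cell cannot be told apart. Of 13 genes of neutrophils and their precursors 10 had a clear signal. Camp, an antimicrobial peptide of granules, read 13.30, 13.31, 13.16 and 12.40. The granule proteases Ctsg (12.53) and Prtn3 (12.19) and the myeloperoxidase Mpo (12.23) were also clear, whereas Cebpa, the master factor of granulocytes, averaged 3.61, Mmp8 3.05 and the receptor Csf3r 2.12. Monocyte genes had 6 of 12 at a clear signal, led by Lyz2 (13.22), Mpeg1 (12.62), Csf2ra (8.88) and Ccr2 (8.77), while Fcgr1, Itgam and Vcan averaged 2.97, 2.86 and 2.39.

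Mast cell, basophil and eosinophil genes had 6 of 8 at a clear signal. Prg2, the major basic protein of eosinophil granules, read 11.70, 12.82, 10.93 and 11.45, and Mcpt8, a basophil protease, averaged 10.08. The high-affinity IgE receptor chain Fcer1a averaged 2.63. Erythroid genes had 6 of 11 at a clear signal. Car2 (14.15), a carbonic anhydrase also made in other cells, was the brightest, ahead of the anion exchanger Slc4a1 (9.90), Car1 (8.67) and Ermap (8.45), and Rhag and Epb42, both of the red-cell membrane, averaged 3.11 and 2.68. The probe set of Hba-a1 was at 2.08, and probe sets that match Hba-a1 and Hba-a2 together were not used. NK-cell genes had 4 of 12 at a clear signal (Gzma, 9.76, Nkg7, 9.24, Klrd1, 9.13, and Ccl5, 7.70), and Ncr1, which defines NK cells, averaged 3.20.

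Genes of stem cells and multipotent progenitors had 10 of 15 at a clear signal. Lmo2 (12.93), Hoxa9 (12.64), Satb1 (11.73) and Kit (11.16) were the brightest, and Hlf (5.21), Procr (3.32) and Mecom (2.13), which mark long-term stem cells, were the dimmest. Hoxa9, a homeobox factor of progenitors that is known to depend on menin in leukaemia, read 12.55, 13.18, 12.53 and 12.32, highest in replicate 2. In all, 65 of 163 genes on the 13 lists of other stages, lineages and organs had a clear signal, a share of 39.9% against 48.8% of all genes, while 91.4% of the genes on the programme lists did.

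**Figure D3:**
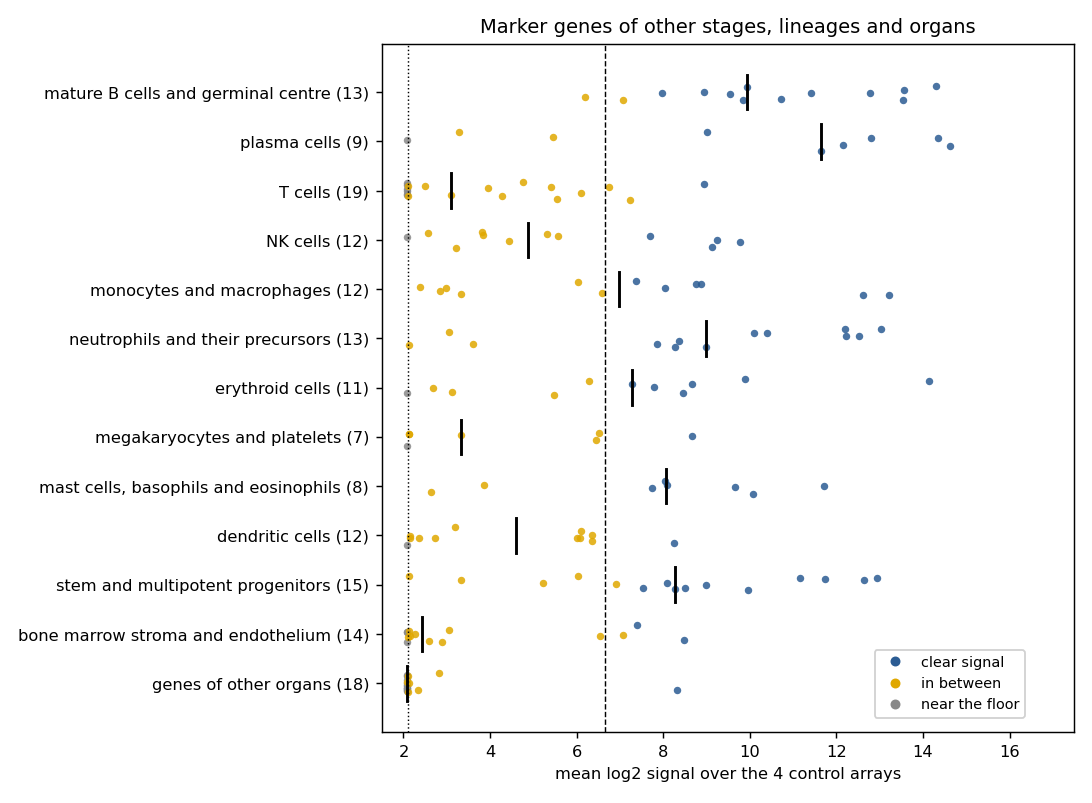
Mean log2 signal over the 4 control arrays for each measured gene (point) of 13 lists of other stages, lineages and organs, drawn as in the plot of the programme lists. T-cell, stromal and organ genes crowd at the left, while neutrophil, stem cell and mature B-cell genes reach well past the dashed line, as with Camp at 13.04, Lmo2 at 12.93 and Ms4a1 at 14.31.

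Most genes were steady across the 4 mice. Among the 9090 genes above the minimum level the median range from the lowest to the highest array was 0.37, or 1.29-fold, and 2691 genes (29.6%) ranged less than 1.2-fold. A range of at least 2-fold was seen in 413 genes (4.54%), at least 4-fold in 44 and at least 8-fold in 18. The variable genes had a median level of 8.39, against 11.08 for all genes above the minimum. Of the bright genes, 13 (0.48%) ranged 2-fold. Counts of this kind depend on which mice are included. Replicate 2 was the lowest for 189 of the 413 genes (45.8%), against 34.3% of all genes above the minimum. Replicate 3 was the highest for 153 (37.0%), close to the 33.6% of all. Without replicates 1, 2, 3 and 4 in turn, the count of genes ranging 2-fold was 349, 190, 216 and 325. Of the 413 themselves, 350, 184, 219 and 331 still ranged 2-fold. For a given probe set the range cannot grow when an array is left out, so some fall is built in.

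The widest range belonged to Xist, the RNA that silences 1 X chromosome in females, with 14.80, 14.81, 2.66 and 14.39. The Y-linked genes ran the other way. Eif2s3y, a translation factor subunit, read 2.08, 2.08, 14.14 and 2.24, Kdm5d read 2.19, 2.19, 7.92 and 2.08, and Uty read 2.10, 2.95, 7.91 and 2.08. Only replicate 3 was low for Xist and high for the Y-linked genes, so it came from a male and the others from females. Within the control arrays, sex and mouse cannot be told apart for genes that were high or low in replicate 3 alone. The menin-deficient arrays held both sexes, with Xist from 2.45 to 14.59 and Eif2s3y from 2.27 to 14.20.

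Among the 24 other genes with the widest ranges, a single mouse stood alone for some and not for others. By Dixon's criterion 9.20% of the 413 variable genes had 1 array apart, against 6.51% of all genes above the minimum. Ccnb1ip1, a ubiquitin ligase that acts in meiotic recombination, read 11.10, 4.47, 11.17 and 10.46, low in replicate 2. Rnase2a, a ribonuclease of eosinophil granules, read 8.32, 2.11, 9.04 and 7.29, and was also low in replicate 2. Gdpd3, a phospholipase, read 11.91, 6.81, 10.01 and 12.52. Hmga2-ps1, a pseudogene, read 6.04, 10.37, 6.43 and 6.56, high in replicate 2. Cd244a, a receptor of the SLAM family, read 8.78, 11.44, 9.17 and 8.85, and its second probe set gave 7.35, 9.96, 7.46 and 7.40, so both put replicate 2 apart, with ranges of 2.66 and 2.61. Zfp874a, a zinc-finger protein, was spread over all 4 arrays, with 7.65, 6.82, 4.94 and 9.82.

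Leaving out 1 mouse brought 10 of the 25 widest ranges under 2-fold. Replicate 2 was the one to leave out for 5 of them (Ccnb1ip1, Hmga2-ps1, Igha, Pbx3 and Cd244a) and replicate 3 for the other 5 (Xist, Rps9, Rinl, Rsl1 and Prxl2c). The Ccnb1ip1 range was 0.72 without replicate 2, and that of Cd244a was 0.39. Others kept a wide range whichever mouse was left out, such as Gdpd3, with at least 2.52, and Zfp874a, with at least 2.71.

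Some of these ranges belong to a probe set and not to a gene. Rps9, a ribosomal protein, read 15.78, 16.07, 10.64 and 15.81 on its brightest probe set, of the _x_at kind, but its other probe sets ranged by 0.16 and 0.47, at means of 14.49 and 10.74. Pbx3, a homeobox factor, read 7.48, 4.88, 7.18 and 7.55 on an _s_at probe set, and without such probe sets its range was 0.22. In contrast, all 3 probe sets of Igha gave the same order of mice at the low end, as described next. With the mean of all probe sets of a gene, 275 genes ranged 2-fold in place of 413.

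**Figure D4:**
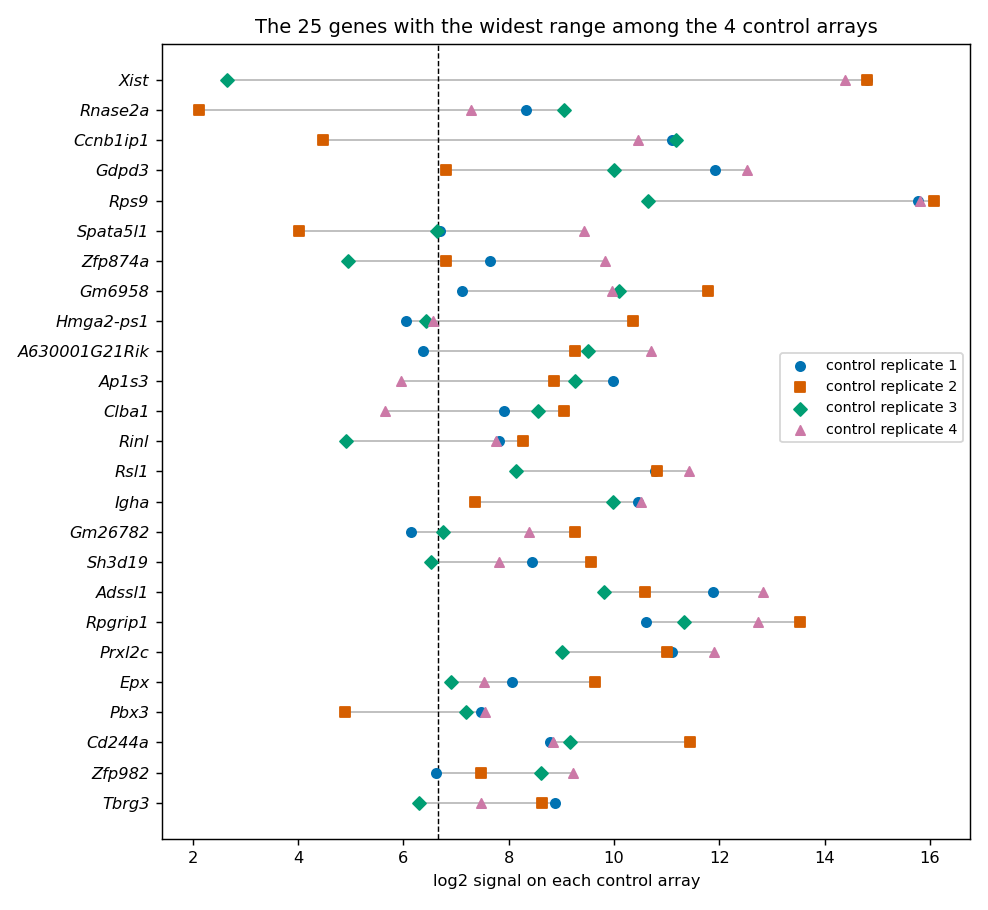
Log2 signal on each control array (symbols) for the 25 genes with the widest range, joined by a grey line from the lowest to the highest array, with the mean 60th percentile dashed. Replicate 2 is the lowest or highest array for Ccnb1ip1, Rnase2a and Cd244a, and replicate 3 stands alone for Xist and Rps9.

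Immunoglobulin genes beyond Ighm were among the features that separated the mice. Igha, the constant region of IgA, read 10.45, 7.36, 9.98 and 10.51, and its other probe sets read 10.13, 6.79, 9.68 and 10.00, and 9.43, 5.83, 8.73 and 9.02. All 3 were lowest in replicate 2, with the other 3 mice within 0.52 of one another on the brightest one. The kappa variable segment Igkv8-30, named after its values were seen, read 14.36, 13.28, 13.39 and 14.10 and was higher in replicates 1 and 4 than in replicates 2 and 3. Of 19 measured immunoglobulin segments 7 (36.8%) had a clear signal, against 48.8% of all genes. Of these 7, 3 ranged 2-fold (2 without replicate 1 and 1 without replicate 2), against 4.54% of all genes above the minimum level. Jchain, the joining chain of secreted antibody, read 9.68, 8.08, 8.89 and 9.40, and was lowest in replicate 2 as well. Kappa segments resemble one another, so their reads on _x_at probe sets may come from several segments.

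Several lists of other marrow cells varied between mice. Of the members above the minimum level, 5 of 10 neutrophil genes, 4 of 6 erythroid genes and 4 of 6 mast cell, basophil and eosinophil genes ranged at least 2-fold, against 4.54% of all genes. None of 6 monocyte and 4 NK-cell genes did. The 4.54% was taken over all genes above the minimum level and was not matched for level. Genes ranging 2-fold were dimmer, with a median of 8.39 against 11.08 for all above the minimum. Without replicate 2 the neutrophil, erythroid and mast cell counts were 2, 0 and 3, and without replicate 4 they were 2, 4 and 3. Without replicate 3 the erythroid and mast cell counts were 2 each, and without replicate 1 the erythroid count was 2. Averaged over the members, erythroid genes lay 0.56 above their own means in replicate 2 and 0.30 below in replicate 1. Slc4a1 read 9.21, 10.56, 10.10 and 9.71, and Ermap read 8.27, 9.22, 7.90 and 8.39. Mast cell, basophil and eosinophil genes lay 0.50 above in replicate 2 and 0.36 below in replicate 4. Epx, the eosinophil peroxidase, read 8.07, 9.63, 6.91 and 7.54, and Prg2 moved with it, while the basophil genes Mcpt8 (10.01, 10.08, 10.70 and 9.51) and Ms4a2 (9.19, 9.74, 10.44 and 9.28) were highest in replicate 3. Rnase2a, the eosinophil granule gene named above and not on this list, went the other way from Epx, with its lowest value in replicate 2 (2.11). Neutrophil genes lay 0.43 below their means in replicate 4 and 0.10 to 0.22 above in the other 3.

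In replicate 2, several B-lineage lists lay below their own means. Genes of mature and germinal centre B cells lay 0.35 below their own means there and 0.095 to 0.15 above in the other mice, and immunoglobulin segments lay 0.63 below, the widest spread between mice (1.09) of the lists averaged here. B-lineage transcription factors lay 0.12 below, and the surface genes of progenitors 0.18 below. Not all such lists did so, since the pre-B-cell receptor genes lay 0.015 above and those of interleukin 7 signalling 0.084 above. Other lists had their highest mean in replicate 2. Among them were the 3 T-cell genes above the minimum level (0.47 above), the 4 NK-cell genes (0.28) and the interferon-stimulated genes (0.25). Single members did not all share this, since Lat was highest in replicate 4 (9.31) and Ccl5 in replicate 3 (8.23). The signals of other cells in replicate 2 stand beside every gene described above as lowest or highest there. Their part in those ranges was not tested. Among the lists of the pre-B-cell receptor, recombination, replication, mitosis and ribosomal proteins, the largest deviation on any array was -0.12, for ribosomal proteins in replicate 3, and it was -0.035 without Rps9, whose low value there rested on 1 probe set.

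**Figure D5:**
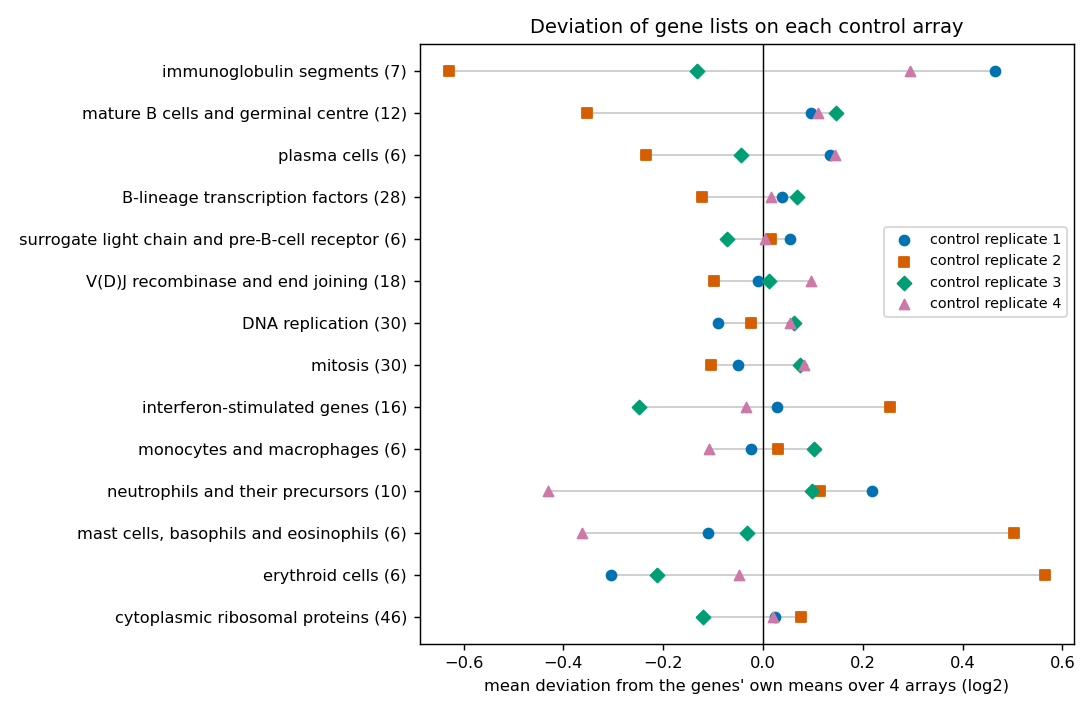
Mean deviation of the members of 14 gene lists from each gene's own mean over the 4 control arrays, in log2 units, with 1 symbol per array and the number of members above the minimum level in brackets. Replicate 2 lies lowest for immunoglobulin segments and mature B-cell genes and highest for erythroid and mast cell, basophil and eosinophil genes, and replicate 4 lies lowest for neutrophil genes.

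Some variable genes lay close together in the genome. Within 3 tested genes on either side, 125 of the 413 variable genes (30.3%) had another variable gene, against 23.3% of the other genes. Of 78 such pairs of neighbours, 22 (28.2%) had the same array farthest from the rest on the same side, against 17.7% of pairs on different chromosomes, so 56 pairs did not share it. The groups that follow were named after their values were seen. On chromosome 7 the Trim genes, which encode ubiquitin ligases of antiviral defence, were highest in replicate 1. Trim5 read 11.46, 10.11, 10.26 and 10.26, Trim12a read 11.92, 11.06, 10.67 and 11.12, and Trim34a and Trim30d shared the pattern, with 11.40 and 10.16 in replicate 1. Their neighbour Trim68 did the reverse, with 9.08, 10.07, 10.17 and 9.80. On chromosome 14, replicate 2 was lowest for Ccnb1ip1 (4.47) and highest for its neighbour Gm26782 (9.27). Replicate 2 was likewise highest for Rpgrip1 (13.54) and lowest for its neighbour Supt16 (13.10) on that chromosome.

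On chromosome 13, a cluster of zinc-finger repressors was lowest in replicate 3 and highest in replicate 4. Rsl1, a repressor of sex-specific liver genes, read 10.78, 10.81, 8.15 and 11.42, Zfp458 read 8.19, 8.08, 7.20 and 8.80, and Zfp429 read 9.58, 9.06, 8.35 and 9.94. Zfp874a, named above for its wide range and a neighbour of Zfp429, was also lowest in replicate 3 (4.94) and highest in replicate 4 (9.82). On chromosome 4, Zfp991 (9.14, 8.95, 8.22 and 8.07) and Gm13238 (9.10, 9.37, 7.92 and 8.05) were higher in replicates 1 and 2, whereas their neighbour Zfp982 was higher in replicates 3 and 4 (6.63, 7.48, 8.61 and 9.22). Members of these clusters resemble one another in sequence, so probe sets may pick up more than 1 of them. Any difference in genetic background between the mice was not tested.

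The 4 menin-deficient arrays gave a second view of the same genes' spread. Of the 413 genes that ranged 2-fold among the controls, 135 (32.7%) also ranged 2-fold among the menin-deficient mice, compared with 206 (2.37%) of the other genes above the minimum. The 413 were dimmer, with a median level of 8.39 against 11.08 for all genes above the minimum, and the comparison was not matched for level. The median SD over the menin-deficient arrays was 0.33 for the variable genes and 0.15 for the others. Ccnb1ip1 ranged from 5.16 to 11.53 there, and Pik3ap1 from 11.83 to 14.43. Rsl1, by contrast, ranged only from 10.51 to 10.65 in the menin-deficient mice, and Zfp874a from 7.46 to 8.06. The same genes thus varied in both sets of mice in some cases and in the controls alone in others.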

How the data were processed

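Each sorted sample gave RNA for 1 Affymetrix Mouse Genome 430 2.0 array after a single round of amplification and biotin labelling, per the labels' protocols and the series' design. The authors deposited 1 table of values for 8 arrays, taken as log2 signals from their range. The sources used here do not say which of MAS5 and GCRMA, both named in the submitters' processing notes, made the deposited log2 values. MAS5 scales each array alone. GCRMA corrects background by probe sequence and normalizes the arrays together. The floor at 2.08 and the likeness of arrays may therefore come from the processing.

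The table holds 45037 probe sets besides 64 of the manufacturer's controls. By the platform annotation 34945 have 1 symbol, 932 have several and 9160 have none, and only the first kind was used. Bands, ranges and list means were computed with pandas 2.3.3 and numpy 2.4.6 in Python 3.11.15, checked on simulated data, and plotted with matplotlib 3.10.9. No test between groups was run, since the description has no contrast. Dixon's criterion marked genes with 1 array apart. Gene order and promoters came from RefSeq tables (GRCm38.p6).

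The members and the 36 gene lists were chosen with earlier results of these data known. The rule for named genes took the 7 markers, the 20 highest means, the 4 highest and 3 lowest of each programme and cell list, all members of the pre-B-cell receptor, CDK inhibitor and sex-linked lists, a set of chosen surface and progenitor genes and the 25 widest ranges, and the text gives a selection. Names outside it are said to be chosen after their values were seen. The pattern for immunoglobulin names was narrowed after seeing the data. On the lists, 39 names are not analysed here. Alternatives were other percentiles, averaged probe sets, no _x_at or _s_at probe sets, quantile normalization, centring and leaving out each array.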

Additional observations from a re-analysis of the deposited data

Results flagged for a closer look

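Of 216 genes whose values are given above, 25 had 1 control array far from the other 3 in proportion to the range by Dixon's criterion. Chance alone marks about 1 in 20 groups of this kind, and 6.51% of the 9090 genes above the minimum level were marked. The 216 include the sex-linked genes and the 25 widest ranges, which were picked for such values. The array that stood apart was replicate 3 for 12 genes, replicate 2 for 8, replicate 4 for 4 and replicate 1 for 1.

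In replicate 3, the male, the sex-linked genes stood apart, with Xist at 2.66, Eif2s3y at 14.14, Kdm5d at 7.92 and Uty at 7.91. The same array was low for Rps9 (10.64), Rinl (4.90) and Igll1 (15.44). It was high for Cd24a (16.27), Ccl5 (8.23), Foxm1 (8.78), Cebpa (4.47) and Ifit1 (2.14). The ranges of Igll1 and Cd24a were small, at 0.45 and 0.27, and that of Ifit1 was 0.048, near the floor.

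In replicate 2, Ccnb1ip1 (4.47), Igha (7.36) and Pbx3 (4.88) were low, and Cd244a (11.44), Hmga2-ps1 (10.37), Car2 (14.46) and Klrd1 (9.27) were high. Cdkn2b was also marked there, at 2.08, but its 4 values differed by 0.0047. The mean of the mature and germinal centre B-cell list was 10.45 in replicate 2, apart from the other 3 arrays.

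In replicate 4, Pik3ap1 (14.29) and Vcan (3.12) were high, and Camp (12.40) and Fcgr1 (2.71) were low. In replicate 1, Trim5 (11.46) was high.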

How the results depend on the processing

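Leaving out 1 array gave 8912 to 8928 genes with a clear signal, 5740 to 5936 near the floor, 233 to 234 programme genes with a clear signal and 25 to 28 genes of other cells near the floor. It gave 94 to 99 genes shared with the 100 brightest and 190 to 349 genes ranging at least 2-fold. The count of variable genes moved most: 275 with the mean of all probe sets, 76 with the 80th percentile as the minimum mean and 902 with none, but 397 after quantile normalization and 407 after centring. The mean of probe sets kept 45 of the 100 brightest genes, and the 50th percentile put 53 genes of other cells near the floor. Other percentiles, requiring 3 of 4 arrays, quantile normalization and dropping _x_at and _s_at probe sets kept every other total within 1.5 times. No paired analysis was possible because no groups were compared. Signals close to the floor carry little information, 4 mice give a rough spread, and no detection calls were used.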
